A study of Mus musculus with 12 samples.

Results

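The mitochondrial ribosomal protein genes were taken from 12 RNA-seq libraries of mouse cells as the symbols that start with Mrpl or Mrps and a number, leaving out pseudogene symbols. The name pattern matched 83 of the 35385 symbols in the tables. Of these 5 were pseudogenes, and each of the remaining 78 genes reached 1 TPM (a transcript abundance scaled to transcript length and library total) in at least 3 libraries, the filter for testing that 12009 symbols passed. By subunit, 51 of the 78 genes encode proteins of the large subunit and 26 proteins of the small subunit. The symbols are not a perfect guide to place: Mrps30 and Mrps18a encode large-subunit proteins, and the product of Mrps36 is a part of the 2-oxoglutarate dehydrogenase complex and is counted in neither subunit.

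Mitochondria make a small set of membrane proteins of the respiratory chain and the ATP synthase on their own ribosomes. The RNA of these ribosomes comes from mitochondrial DNA, whereas all of their proteins are encoded in the nucleus, made in the cytosol and imported. Compared with its bacterial relative the mammalian mitoribosome has shed much of its RNA and gained proteins with no bacterial counterpart. In this set 47 genes encode proteins with a bacterial homologue and 30 encode mitochondria-specific proteins. Oligodendrocyte progenitor cells, which give rise to the myelin-forming cells of the brain, draw on mitochondrial respiration during differentiation.

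The cells were oligodendrocyte progenitor cells (OPCs) derived from mouse pluripotent stem cells, plated in a medium permissive for differentiation, given 1 h to attach and then exposed for 4 h. The exposures were to 3 quaternary ammonium compounds and to the solvent. CPC is cetylpyridinium chloride (labelled Tox1), AEBDAC is C12-C14-Alkyl(ethylbenzyl)dimethylammonium chloride (labelled Tox2), MTOAC is methyltrioctylammonium chloride (labelled Tox3), and vehicle is DMSO (labelled Control). Each compound was given at its own IC75, the concentration that inhibits by 75%; the labels state no amounts. Each group had 3 libraries. Whether a group's libraries stem from different cultures is not stated, and the p-values below reflect only how these libraries vary, which may be technical variation.

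The deposited TPM summed to between 772637 and 797758 per library over 15431 to 16210 symbols above 0; TPM keep no trace of depth, for which the labels state only a minimum of 20 M reads a sample. All 6 OPC markers passed the filter, and their summed level was 1497 to 1657 TPM in CPC, 1407 to 1655 TPM in AEBDAC, 1199 to 1310 TPM in MTOAC and 1862 to 2249 TPM in vehicle. Olig1 alone averaged 1194 TPM in vehicle. By limma, as described below, Olig1 was called lower with AEBDAC (log2 -0.82, adjusted p 0.0404) and MTOAC (-1.17, 0.00647). Pdgfra was called lower with MTOAC (-1.20, 0.0319). Of all tested genes 0.883% were called lower with AEBDAC and 5.75% with MTOAC. Cspg4 leaned higher with CPC (0.17) and AEBDAC (0.26), without a call. Of 6 markers each, 0 passed for microglia, 1 for pluripotent cells, 5 for astrocytes and 5 for neurons. Passing does not mean a high level: the astrocyte markers Aqp4 and Aldh1l1 averaged 0.66 and 0.52 TPM in vehicle. The pluripotent markers summed to 11.64 TPM in vehicle library 1 and 13.79 TPM in MTOAC library 3. They summed to between 4.18 and 6.33 TPM in each other library. The part of these markers in the results below was not tested. Vehicle library 1 stood apart: the 13 mitochondrially encoded genes summed to 86422 TPM there and to at least 147539 TPM in each other library, and 41.2% of all tested genes had their highest value in it, as did 41% (32) of the 78 members. MTOAC library 3 held the lowest of the 12 values for 33.3% (26) of the members and for 11.7% of all tested genes. MTOAC library 2 held the lowest value for 17.9% of the members and for 21.6% of all tested genes, the largest share of all genes among the 12 libraries. Medians without these libraries are given below, as are the libraries without which the call of a member was lost.

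Levels of the members in vehicle spanned a wide range. TPM are scaled by transcript length, so levels can be set side by side between genes. The median member lay at 51.6 TPM, with quartiles of 31.7 and 82.3 TPM, against 12.4 TPM for the median tested gene. Of the 78 members, 15 were above 100 TPM, 56 lay between 10 and 100 TPM and 7 were below 10 TPM. Large-subunit genes had a median of 53.4 TPM and small-subunit genes of 46.6 TPM, and the median was 45.6 TPM for mitochondria-specific proteins and 53.4 TPM for those with a bacterial homologue.

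**Figure D1:**
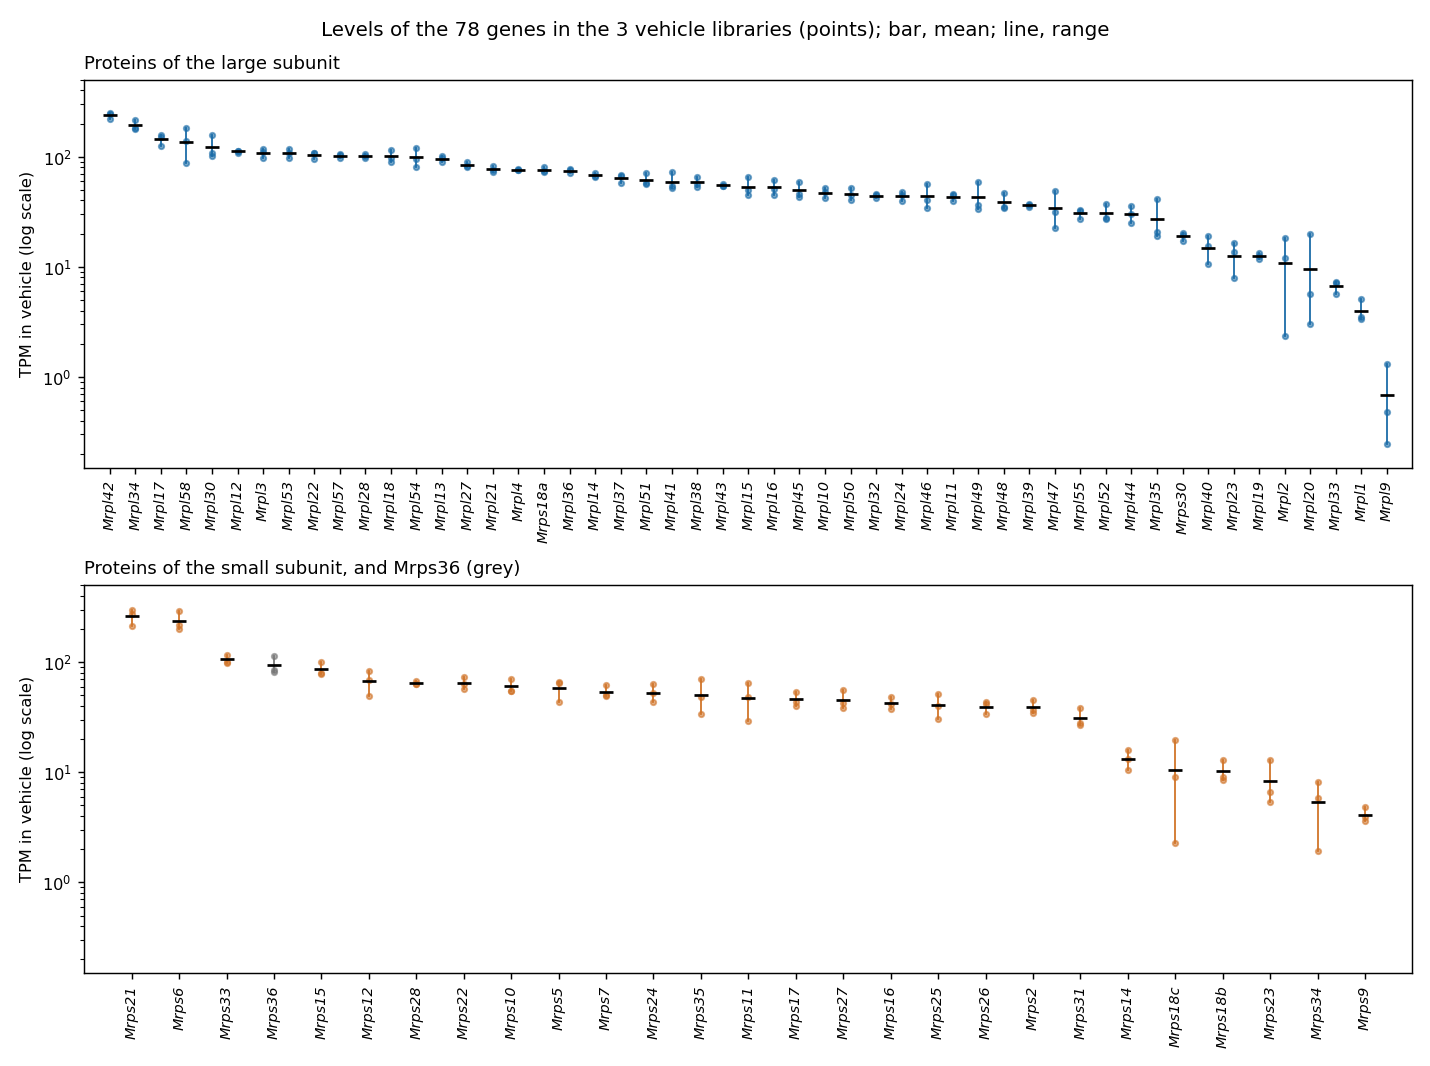
Mean TPM (log axis) of each member in vehicle, in order of level within each subunit, with Mrps36 drawn beside the small subunit, the 3 libraries as points and a line over their range. Levels run from Mrps21 at 263 TPM to Mrpl9 at 0.678 TPM, and over both subunits 74 of the 77 pairs of neighbours in the order overlap.

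At the top of the order stood Mrps21, a small-subunit protein, at 263 ± 44.2 TPM (SD, n = 3 for each level here), Mrpl42, a mitochondria-specific large-subunit protein, at 238 ± 15.1 TPM, Mrps6, a small-subunit protein, at 237 ± 47.7 TPM and Mrpl34, a large-subunit protein, at 192 ± 20.1 TPM. At the bottom stood Mrps34, a mitochondria-specific small-subunit protein, at 5.32 ± 3.15 TPM, Mrps9 at 4.13 ± 0.608 TPM, Mrpl1 at 3.97 ± 0.951 TPM and Mrpl9 at 0.678 ± 0.558 TPM. The steps between neighbours were mostly within the spread of the libraries: 74 of 77 neighbouring pairs overlapped. The median coefficient of variation in vehicle was 14.8%, and 5 members exceeded 50%, namely Mrpl20, Mrps18c, Mrpl9, Mrpl2 and Mrps34. Mrpl12, the stalk protein that contacts the elongation factors, was among the steadiest, at 112 ± 2.59 TPM.

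Some of these levels are uncertain because transcripts share sequence with other genes. In GENCODE M21 all 78 members were placed, on 17 chromosomes (gene coordinates below are from it, on GRCm38); 33 of them overlapped exons of another gene, and the kit is not described as marking strand. Over 50% of the 31-base words of the transcripts were shared with other genes for 6 members, namely Mrpl53, Mrps25, Mrpl23, Mrps18b, Mrps34 and Mrpl27. The shares are over all other genes together and were not split by gene. For Mrpl23 the share was 67.6%, with the most matches in the pseudogene Mrpl23-ps1. Mrpl23 was listed at 12.6 ± 4.34 TPM in vehicle and the pseudogene at 143 ± 28.6 TPM (SD, n = 3 each), so how reads were divided between them bears on the level of Mrpl23.

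The 3 Mrps18 genes encode related proteins that take different places in the ribosome: Mrps18a sits in the large subunit and Mrps18b and Mrps18c in the small subunit. Mrps18a had 73.3 TPM in CPC, 75.9 TPM in AEBDAC, 71.2 TPM in MTOAC and 75.7 TPM in vehicle on average. Mrps18b averaged 7.84, 8.21, 8.56 and 10.2 TPM in CPC, AEBDAC, MTOAC and vehicle. Mrps18c ranged in vehicle alone over 2.3, 9.13 and 19.8 TPM, and its fold changes did not pass the test in any comparison. Mrps18a was thus listed well above its relatives in every group. Of the 31-base words, 64.3% were shared with other genes for Mrps18b, 38.1% for Mrps18c and 0.0% for Mrps18a. How reads were divided thus bears on the levels of Mrps18b and Mrps18c.

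Summed over the members, the level was 4580, 4443 and 4525 TPM in the CPC libraries, 4837, 4306 and 4482 TPM in AEBDAC, 4461, 4414 and 4005 TPM in MTOAC, and 5185, 4764 and 4883 TPM in vehicle. All CPC and MTOAC libraries lay below all vehicle libraries, whereas AEBDAC library 1 lay above vehicle library 2. As a share of the TPM of all nuclear genes, which sets aside the mitochondrially encoded transcripts, the sum was 0.724 ± 0.021% in CPC, 0.715 ± 0.039% in AEBDAC, 0.683 ± 0.0456% in MTOAC and 0.77 ± 0.0145% in vehicle (SD, n = 3 each). The large-subunit sum over the small-subunit sum was 2.18 ± 0.156 in CPC, 2.13 ± 0.172 in AEBDAC, 2.15 ± 0.197 in MTOAC and 2.13 ± 0.101 in vehicle, a difference between groups smaller than the spread within them. In bulk samples fewer cells of a type and less RNA per cell cannot be told apart.

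**Figure D2:**
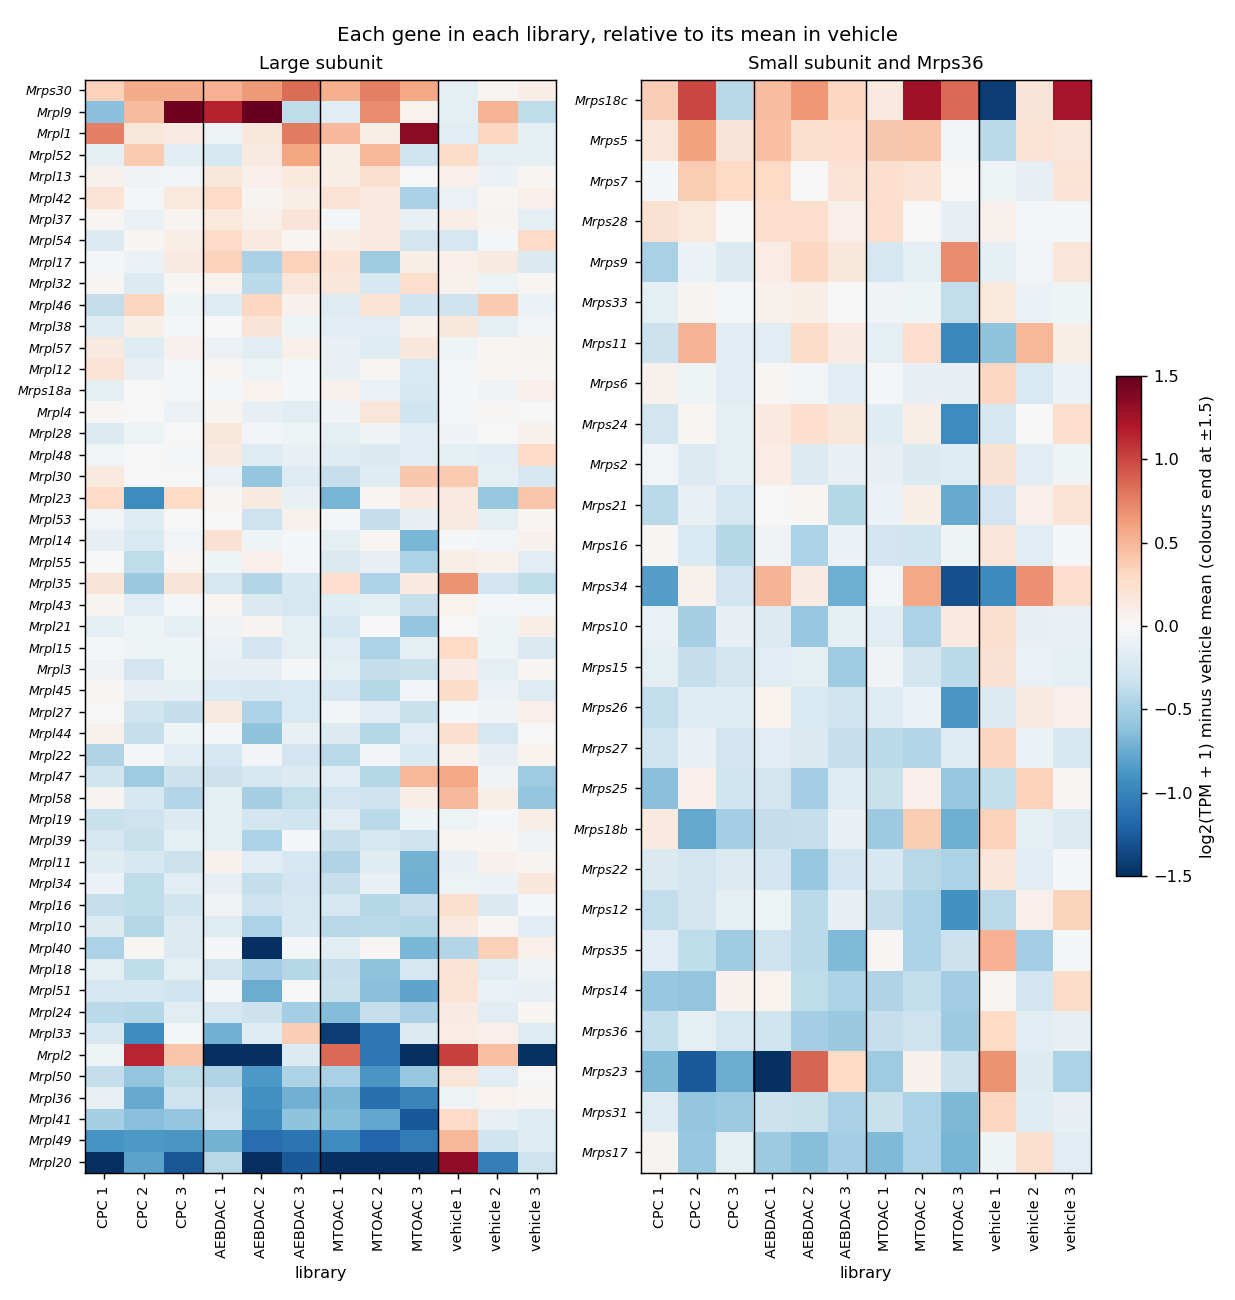
Difference of each member in each library from its own mean in vehicle, on the log2(TPM + 1) scale, with genes in rows and libraries in columns in the order CPC, AEBDAC, MTOAC and vehicle, and with colours that end at 1.5 on either side. Vehicle library 1 holds the highest value for 32 members and MTOAC library 3 the lowest for 26.

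Fold changes below are log2 differences of a compound minus vehicle on the log2(TPM + 1) scale, which understates the change of low genes. They come from limma, fitted to all 12009 tested genes, and a gene is called when its Benjamini-Hochberg adjusted p is under 0.05. The 3 comparisons share the vehicle libraries. The medians of the members lay close to those of all tested genes. With CPC the median member stood at -0.13 and the median tested gene at -0.17. With AEBDAC the members stood at -0.15 and all genes at -0.16, and with MTOAC the members at -0.24 and all genes at -0.22. Differences from the median gene were 0.04, 0.01 and -0.02. Under quantile normalization, which brings the median of all genes to within 0.01 of 0, the members' medians were 0.03, -0.03 and -0.04, so the sign with CPC depends on the scaling. Without vehicle library 1 the members stood at -0.12 with CPC, -0.10 with AEBDAC and -0.16 with MTOAC, and all genes at -0.09, -0.07 and -0.14. Without MTOAC library 3 the members stood at -0.17 with MTOAC and all genes at -0.28. Without MTOAC library 2 they stood at -0.23 and -0.17. For the median member the unadjusted 95% interval reached 0.36 to either side, so changes smaller than this were mostly not detectable for single members. A call also needs the adjusted p to pass, so larger changes could be missed too. Mrpl49 at -0.87 with CPC, for 1, was not called (adjusted p 0.143 by limma).

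Most members leaned to lower values, as did most genes. Fold changes were below 0 for 63 members with CPC, 55 with AEBDAC and 66 with MTOAC, which is 80.8%, 70.5% and 84.6% of the set beside 71.1%, 67% and 71.7% of all tested genes. The 3 libraries of a compound lay below all 3 vehicle libraries for 16 members with CPC, 16 with AEBDAC and 21 with MTOAC, beside 18%, 19.2% and 22.4% of all tested genes. As shares of the members these are 20.5%, 20.5% and 26.9%, near the background. Members above all vehicle libraries numbered 1, 3 and 1, beside 2.58%, 5.65% and 3.99% of all genes. Fold changes within 0.5 of 0 were found for 74, 68 and 65 members.

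**Figure D3:**
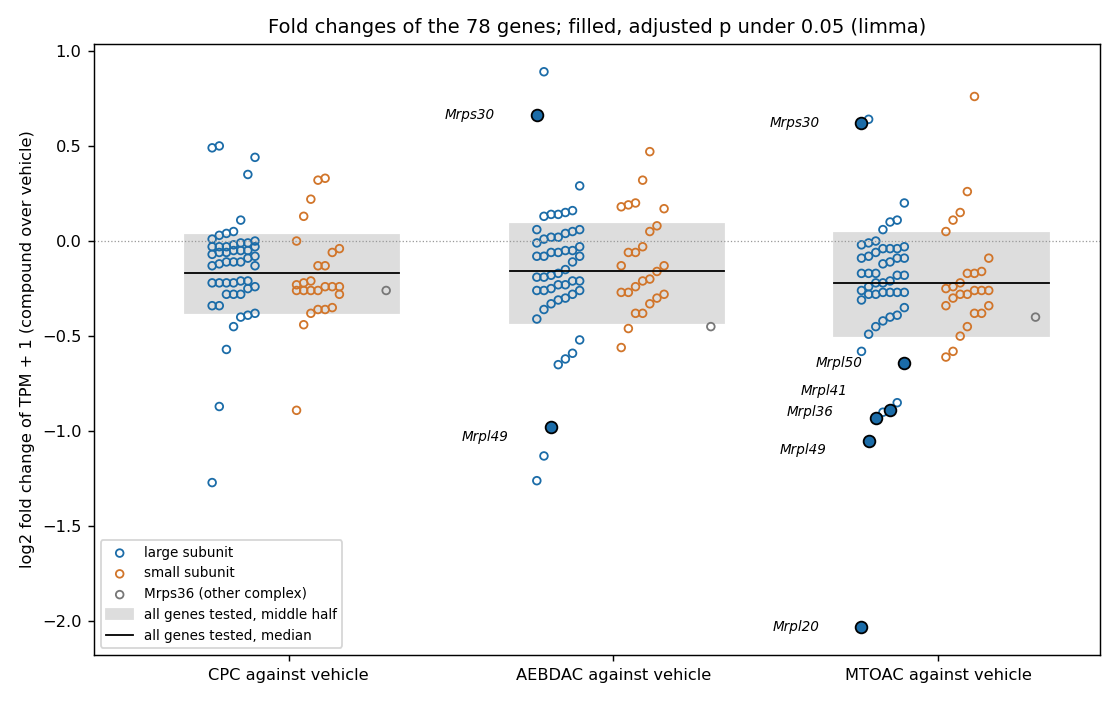
Log2 fold change of every member against vehicle (log2(TPM + 1) scale) for CPC, AEBDAC and MTOAC, by subunit, with the called genes marked. The medians of -0.13, -0.15 and -0.24 lie close to those of all tested genes, and the called members are large-subunit genes.

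The medians of the subunits and origins spanned a narrow range, and the differences between them were not tested. Large-subunit genes had medians of -0.11 with CPC, -0.15 with AEBDAC and -0.21 with MTOAC, and small-subunit genes had -0.24, -0.14 and -0.26. Mitochondria-specific proteins had medians of -0.22, -0.18 and -0.26, and those with a bacterial homologue -0.13, -0.11 and -0.22. In the fit without a replicate block the 6 genes called in any comparison all encode large-subunit proteins, 6 of 51. By limma 0 of the 26 small-subunit genes were called there. With the replicate number as a block, limma also called small-subunit genes: Mrps22 with AEBDAC, and Mrps17, Mrps22 and Mrps31 with MTOAC. That fit called 8.97% and 16.7% of the members with AEBDAC and MTOAC, beside 8.93% and 15.9% of all genes. The difference between subunits in calls was not tested. Without the block, the small-subunit genes at an unadjusted p under 0.05 numbered 1 with CPC, 3 with AEBDAC and 5 with MTOAC. The large-subunit genes numbered 8, 8 and 16. At that threshold the shares were 11.5%, 15.4% and 28.2% of all 78 members beside 13.6%, 19.2% and 24.4% of all tested genes.

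With CPC, limma called 0 of the 78 members, beside 0.0666% (8) of all 12009 genes, of which 0.0333% were higher and 0.0333% lower; at an unadjusted p under 0.05 the count was 9 members (11.5%) beside 13.6% of all genes. With AEBDAC it called 2 members, 1 lower and 1 higher, or 2.56% of the set beside 1.27% of all genes (0.883% lower and 0.391% higher); with each library left out in turn the count was 0 or 1 (9 to 104 of all genes). With MTOAC it called 6 members, or 7.69% beside 6.54% of all genes. Of these 5 fell, beside 5.75% of all genes called lower, and 1 rose, beside 0.791% called higher. With each library left out in turn the MTOAC count was 0 to 3 (149 to 573 of all genes). It was 0 without MTOAC library 2, beside 149 of all genes, and 3 without vehicle library 1, beside 305 of all genes. The share of members called with MTOAC was thus near the background, and no difference from the background was tested for the 2 with AEBDAC. The CPC and vehicle libraries with the same number deviated together, and a fit with the replicate number as a block called 1 member with CPC, Mrpl49, which is 1.28% of the members beside 1.53% (184) of all genes in that fit.

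The start regions of 3 of the called genes are shown because 2 of them were lower and 1 higher with the compounds. Those of Mrpl41, Mrpl50 and Mrpl20, also called lower with MTOAC, are not shown. They are the 250 bases before and 50 after the RefSeq start (GRCm38.p6), each printed 5′ to 3′ on the gene's own strand. Capitals mark matches, on either strand, to the NRF1 core CGCATGCG, the ETS motif CCGGAAG, the YY1 motif AAGATGGC and the E-box CACGTG. NRF1, ETS-family and YY1 factors are known to bind start regions of many nuclear genes for mitochondrial proteins. The windows lie at chr19:6057706-6058005 on the minus strand for Mrpl49, at chr13:73330759-73331058 on the plus strand for Mrpl36 and at chr13:118387203-118387502 on the minus strand for Mrps30.
Mrpl49: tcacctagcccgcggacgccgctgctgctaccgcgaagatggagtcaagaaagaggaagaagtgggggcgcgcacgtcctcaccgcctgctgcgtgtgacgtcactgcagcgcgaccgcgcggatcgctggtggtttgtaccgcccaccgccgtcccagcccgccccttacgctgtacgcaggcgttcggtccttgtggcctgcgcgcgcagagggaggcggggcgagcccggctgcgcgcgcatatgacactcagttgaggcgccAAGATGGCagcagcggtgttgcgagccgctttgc
Mrpl36: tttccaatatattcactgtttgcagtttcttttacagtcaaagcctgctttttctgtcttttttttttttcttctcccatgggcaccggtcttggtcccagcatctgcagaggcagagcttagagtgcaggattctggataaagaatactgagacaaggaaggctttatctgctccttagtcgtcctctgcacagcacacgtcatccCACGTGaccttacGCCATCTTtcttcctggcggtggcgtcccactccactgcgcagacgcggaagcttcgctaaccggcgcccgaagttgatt
Mrps30: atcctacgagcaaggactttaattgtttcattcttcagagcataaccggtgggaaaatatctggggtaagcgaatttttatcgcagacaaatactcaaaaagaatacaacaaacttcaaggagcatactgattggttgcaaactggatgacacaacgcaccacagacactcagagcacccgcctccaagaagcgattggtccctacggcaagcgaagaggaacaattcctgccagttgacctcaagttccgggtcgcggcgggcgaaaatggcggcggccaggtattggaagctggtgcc
The Mrpl49 window held 1 YY1 match, just after the start, the Mrpl36 window held 1 YY1 match and 1 E-box, and the Mrps30 window held none of these letters.

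Windows were given for 69 of the 78 members. The YY1 letters were found in the windows of 17.4% (12) of these members, beside 5.6% of tested genes with a window and 3.2% of all 27025 genes with a window. The ETS letters were found for 37.7% (26) of members, beside 21.2% and 9.9%, and the NRF1 core for 10.1% (7), beside 4.7% and 2.1%. E-boxes were found for 7.2% of members beside 11.8% and 8.1%, TATAAA for 7.2% beside 8.1% and 15.7%, and CCAAT for 39.1% beside 44.1% and 41.1%. The C/EBP-ATF letters TGATGCAA were found in 0 of the 69 member windows, beside 0.7% and 1.0%. All were searched on both strands, none of these motifs contains another, and a match is a description and not a bound site. Among the called genes the YY1 letters stood in the windows of Mrpl49 and Mrpl36 only. They stood also in those of Mrpl42 and Mrps12, which were not called. Whether the letters go with a fall or a rise was not tested.

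Mrpl49 encodes a mitochondria-specific large-subunit protein and had the smallest adjusted p of the members with MTOAC. Its levels were 22.1, 22.5 and 22.3 TPM in CPC, 25.2, 18.4 and 18.9 TPM in AEBDAC, 21.4, 17.7 and 19.7 TPM in MTOAC, and 59.3, 33.7 and 36.2 TPM in vehicle. Every compound library lay below every vehicle library, and vehicle library 1 was the highest of all. The fold change was -0.98 ± 0.20 (log2, SE) with AEBDAC, adjusted p 0.0452 by limma, and -1.05 ± 0.20 with MTOAC, adjusted p 0.0168. With CPC it was -0.87 ± 0.20 and did not pass, at an adjusted p of 0.143, or 0.0442 with the replicate block.

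The fall of Mrpl49 with MTOAC passed in 5 of 6 fits that left out a library, including the fit without vehicle library 1, and did not pass without MTOAC library 2 (adjusted p 0.0661). With AEBDAC it passed without AEBDAC library 1 (0.0485) and was lost without vehicle libraries 1, 2 and 3 (0.096, 0.0793 and 0.0754) and AEBDAC libraries 2 and 3 (0.203 and 0.169). The gene lies at chr19:6053622-6057785 on the minus strand, and its exons overlap those of Syvn1, an endoplasmic reticulum ubiquitin ligase, on the opposite strand. Syvn1 fell as well with MTOAC, to 11.9 ± 0.246 TPM, against 20.5 ± 3.12 TPM in vehicle (SD, n = 3 each; log2 -0.73, adjusted p 0.0165 by limma), and that call was lost without MTOAC libraries 1 and 2 (0.0513 and 0.0552). Reads from the overlap cannot be told apart without strand. Of the 31-base words of Mrpl49, 3.5% were shared with other genes, with the most matches in Syvn1.

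Mrps30, a mitochondria-specific protein of the large subunit despite its symbol, was the only called member that rose. It had 24.3, 28.3 and 28.2 TPM in CPC, 27.7, 29.9 and 34.6 TPM in AEBDAC, 27.8, 32.7 and 28.7 TPM in MTOAC, and 17.2, 19.4 and 20.3 TPM in vehicle. All 9 compound libraries lay above all 3 vehicle libraries, and Mrps30 was the only 1 of the 78 members for which this held, beside 1.34% of all tested genes. Its fold change was 0.66 ± 0.13 with AEBDAC (adjusted p 0.0404 by limma) and 0.62 ± 0.13 with MTOAC (0.0241). With CPC it was 0.49 ± 0.13, which did not pass (0.183).

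The rise of Mrps30 was lost in each of the 6 fits with AEBDAC that left out a library, at an adjusted p of 0.112, 0.0963 and 0.0754 without vehicle libraries 1, 2 and 3, and of 0.0518, 0.174 and 0.169 without AEBDAC libraries 1, 2 and 3. With MTOAC it passed in 2 of 6 fits and was lost without vehicle library 1 (0.0633), vehicle library 2 (0.0581), MTOAC library 1 (0.0517) and MTOAC library 2 (0.0871). The fold change itself stayed between 0.55 and 0.67 in these 6 fits. The gene lies at chr13:118378381-118387252 on the minus strand and overlaps the antisense gene B430218F22Rik. Of the 31-base words of Mrps30, 17.4% were shared with other genes, with the most matches in B430218F22Rik. Its symbol was not found among those listed with TPM, so its level could not be set beside that of Mrps30. How reads from the overlap were assigned was not tested.

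**Figure D4:**
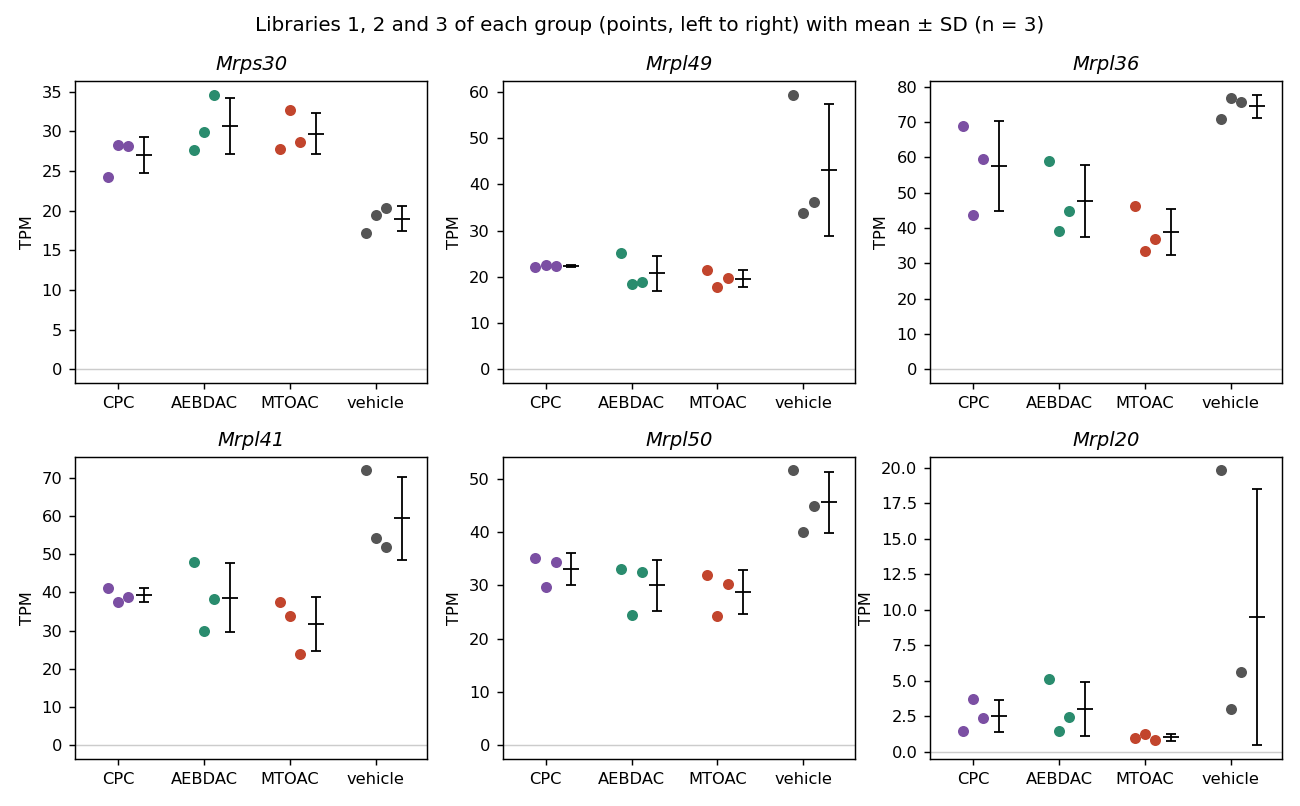
TPM of the 6 called members in each library, with CPC, AEBDAC and MTOAC left of vehicle and bars at the group means. Mrps30 is higher in every compound library than in vehicle, Mrpl49, Mrpl41, Mrpl36 and Mrpl50 are lower in every one, and Mrpl20 is spread over 3.04 to 19.8 TPM in vehicle alone.

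Mrpl36, a large-subunit protein with a bacterial homologue, had 68.9, 43.8 and 59.6 TPM in CPC, 59.1, 39.3 and 44.8 TPM in AEBDAC, 46.2, 33.5 and 36.9 TPM in MTOAC, and 70.8, 76.9 and 75.6 TPM in vehicle. All compound libraries were below all vehicle libraries, and the lowest values were in MTOAC. The fold change with MTOAC was -0.93 ± 0.19 (adjusted p 0.022 by limma). It did not pass with AEBDAC at -0.65 ± 0.19 (0.106) or with CPC at -0.39 ± 0.19 (0.394). The call with MTOAC was lost without vehicle library 2 (0.0608), vehicle library 3 (0.0574) or MTOAC library 2 (0.0816). Its exons, at chr13:73328513-73332178 on the plus strand, overlap those of the respiratory chain gene Ndufs6 on the opposite strand, which averaged 128 ± 40.8 TPM in MTOAC and 142 ± 33.7 TPM in vehicle (SD, n = 3 each; log2 -0.18, adjusted p 0.771). Of the 31-base words of Mrpl36, 2.7% were shared with other genes, with the most matches in Hsd17b2.

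Mrpl41, a mitochondria-specific protein of the large subunit (chr2:24974117-24975098, minus strand), had 41.2, 37.6 and 38.9 TPM in CPC, 48, 29.8 and 38.2 TPM in AEBDAC, 37.5, 33.7 and 23.8 TPM in MTOAC, and 71.9, 54.3 and 51.8 TPM in vehicle. The compound and vehicle libraries did not overlap, and MTOAC library 3 was the lowest. The fold change with MTOAC was -0.89 ± 0.20 (adjusted p 0.0313 by limma). It did not pass with AEBDAC at -0.62 (0.141) or with CPC at -0.57 (0.279). It passed only in the fit without MTOAC library 1 (0.0478) among the 6 that left out a library; without vehicle library 1 the p was 0.0915, without vehicle libraries 2 and 3 it was 0.0625 and 0.0528, and without MTOAC libraries 2 and 3 it was 0.0777 and 0.0633. Of its 31-base words 25.1% were shared with other genes, with the most matches in Gm6434, which was listed at 0 in every library.

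Mrpl50, another mitochondria-specific large-subunit protein (chr4:49512596-49521093, minus strand), had 35.2, 29.7 and 34.5 TPM in CPC, 33, 24.4 and 32.6 TPM in AEBDAC, 32, 24.2 and 30.2 TPM in MTOAC, and 51.6, 40.1 and 45 TPM in vehicle. The groups did not overlap, and library 2 was the lowest in each of the 4 groups. The fold change with MTOAC was -0.64 ± 0.16 (adjusted p 0.0401 by limma). It did not pass in any of the 6 fits that left out a library, with an adjusted p of 0.114, 0.0596 and 0.0851 without vehicle libraries 1, 2 and 3, and of 0.0645, 0.131 and 0.0584 without MTOAC libraries 1, 2 and 3. With AEBDAC the fold change was -0.59 (0.0901) and with CPC -0.45 (0.281), neither of which passed.

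Mrpl20, which has a bacterial homologue that takes part in building the large subunit (chr4:155802878-155809975, plus strand), was low and variable. It had 1.46, 3.74 and 2.39 TPM in CPC, 5.16, 1.5 and 2.45 TPM in AEBDAC, 0.957, 1.26 and 0.837 TPM in MTOAC, and 19.8, 3.04 and 5.66 TPM in vehicle. The MTOAC libraries lay below all vehicle libraries, while CPC and AEBDAC overlapped vehicle. The fold change with MTOAC was -2.03 ± 0.53 (adjusted p 0.0463 by limma). At this low level it depends on the pseudocount: with 0.1 it was -2.69 (0.0381), and with 5 it was -1.10 and the call was lost (0.0707). Without vehicle library 1, the highest of the 12, the fold change was -1.37 and the adjusted p 0.109. The call held without vehicle library 2 (0.0407) and was also lost without vehicle library 3 (0.0808) and MTOAC libraries 1, 2 and 3 (0.106, 0.109 and 0.0847).

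Beyond single calls, 9 members lay below vehicle in every library of all 3 compounds, or 11.5% of the set beside 10.1% of all tested genes: Mrpl49, Mrpl36, Mrpl41 and Mrpl50 described above, and Mrpl10, Mrpl24, Mrpl34, Mrps22 and Mrps31. Mrpl24, a protein near the peptide exit, averaged 31.1 ± 3.33 TPM in MTOAC and 44 ± 4.4 TPM in vehicle (SD, n = 3 each), a fold change of -0.49 with an adjusted p of 0.051 by limma. It passed with a pseudocount of 5 (0.0489), with TPM rescaled over nuclear genes (0.0468) and with the replicate block (0.0389), and did not pass under quantile normalization (0.24). Of its 31-base words 40.3% were shared with other genes, with the most matches in Rrnad1, which it overlaps on the opposite strand. Mrpl10, which anchors the stalk, had -0.42 (0.0672) and Mrps31, a mitochondria-specific small-subunit protein, -0.50 (0.0971) with MTOAC. Mrps22, a mitochondria-specific small-subunit protein, had -0.24 with CPC, -0.38 with AEBDAC and -0.38 with MTOAC, the last at an adjusted p of 0.0919. Among the best supported members by p that did not pass, Mrps17, a small-subunit protein, had -0.22 with CPC, -0.56 with AEBDAC (0.108) and -0.61 with MTOAC (0.052). With the replicate block limma called Mrpl10, Mrps17, Mrps22 and Mrps31 with MTOAC, and Mrps22 with AEBDAC.

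Other members named by rule gave smaller values. Mrpl16, a large-subunit protein, had -0.34 with CPC (adjusted p 0.294 by limma), -0.21 with AEBDAC and -0.35 with MTOAC. Mrpl18, a large-subunit protein, had -0.41 with AEBDAC (0.144) and -0.40 with MTOAC (0.0967). Mrps12, which lies at the decoding centre, had -0.58 with MTOAC (0.0997), and it passed when vehicle library 1 was left out (0.0487). Mrps16, a small-subunit protein, stood at -0.21, -0.21 and -0.22 with CPC, AEBDAC and MTOAC. Mrps36, the gene that is not a ribosomal protein, had -0.26, -0.45 and -0.40.

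The most and the least abundant members gave no calls. Mrpl42 had 0.11 with CPC, 0.14 with AEBDAC and -0.04 with MTOAC, and Mrps6 -0.06, -0.06 and -0.09. Mrps21 had -0.26, -0.13 and -0.26, and Mrpl34 -0.21, -0.26 and -0.39. Mrpl12 had 0.03, -0.03 and -0.11. Of the least abundant, Mrps34 had -0.35, -0.03 and -0.26, Mrps9 -0.26, 0.20 and 0.11, Mrpl1 0.35, 0.29 and 0.64, and Mrpl9 0.44, 0.89 and 0.20. The smallest adjusted p among them by limma was 0.141, for Mrpl34 with MTOAC.

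Some members were highest, or lowest, in the same library number of all 4 groups, in shares for the most part near or below those of all genes. The shares of all genes come from the same libraries. They do not show how often this would arise with unrelated numbers, which was not tested. Mrpl46 and Mrps11, a divergent pair on chromosome 7 whose exons overlap on opposite strands, were the only members highest in library 2 of all 4 groups, 2.56% of the set beside 3.21% of all genes; the pair was chosen after its values were seen. Mrpl46 had 53.8 TPM in CPC library 2, 53.2 TPM in AEBDAC library 2, 49.6 TPM in MTOAC library 2 and 56.6 TPM in vehicle library 2, and between 33.1 and 44.8 TPM in the other 8. Mrps11 had 64.6, 54.7, 54.5 and 64.2 TPM in the same libraries and 22.5 to 49.1 TPM in the others. In all, 6 members were highest and 2 lowest in library 1 of all 4 groups, beside 6.58% and 2.81% of all genes, and 8 were lowest in library 2, beside 13.4%. For library 3 the counts were 0 highest and 1 lowest, beside 3.55% and 2.7%. As shares of the members the library 1 counts were 7.69% and 2.56%, and the 8 were 10.3%. What the numbers stand for is not given in the labels.

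Between compounds the exposure time was the same and the concentrations were each compound's own IC75, so the doses are not matched by amount. For AEBDAC against CPC, MTOAC against CPC and MTOAC against AEBDAC, limma called 0 of 78 members, beside 0% of all genes in each of the 3. At an unadjusted p under 0.05 there were 0 members for AEBDAC against CPC (1.76% of all genes), 2 for MTOAC against CPC (2.56% beside 3.74%) and 2 for MTOAC against AEBDAC (2.56% beside 2.56%). In MTOAC minus CPC, Mrpl36 stood at -0.54 (95% interval -0.96 to -0.12) and Mrps17 at -0.39 (-0.76 to -0.03), both with an adjusted p of 1. Mrpl11, which binds the factor-binding region of the large rRNA, stood at -0.34 and Mrps24 at -0.52 in MTOAC minus AEBDAC. For Mrpl49 the intervals were -0.55 to 0.33 for AEBDAC minus CPC, -0.63 to 0.26 for MTOAC minus CPC and -0.52 to 0.37 for MTOAC minus AEBDAC. For Mrps30 they were -0.11 to 0.47, -0.15 to 0.42 and -0.33 to 0.25. Differences of the size of these intervals were not detectable.

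Related gene lists were read beside the members. Of all tested genes, 0.0666%, 1.27% and 6.54% were called with CPC, AEBDAC and MTOAC, and 13.6%, 19.2% and 24.4% had an unadjusted p under 0.05. Of the cytosolic ribosomal proteins, 81 passed the filter and 0 were called by limma in any comparison with vehicle (3, 2 and 3 at an unadjusted p under 0.05), and their medians were 0.06, 0.11 and 0.10 with CPC, AEBDAC and MTOAC. The 80 nuclear respiratory chain genes had 0 calls (1, 1 and 4 at an unadjusted p under 0.05) and medians of -0.02, 0.03 and -0.06. The 13 mitochondrially encoded genes had 0 calls (0, 0 and 0) and medians of 0.15, 0.02 and 0.12. The mitoribosomal proteins with other symbols, Dap3, Ptcd3, Chchd1, Aurkaip1 and Gadd45gip1, had 0 calls of 5 (1, 1 and 1) and medians of 0.00, -0.07 and -0.02. These medians lay above those of the members, with exceptions under quantile normalization, where the cytosolic ribosomal proteins and the members were within 0.01 of each other with CPC and the mitochondrially encoded genes lay below the members in all 3 comparisons. Without vehicle library 1 the mitochondrially encoded genes also lay below the members in all 3, and without AEBDAC library 1 the mitoribosomal proteins with other symbols lay 0.01 below them with AEBDAC. The size of some gaps depended on the scaling too. For the cytosolic ribosomal proteins minus the members, 0.26 with AEBDAC and 0.34 with MTOAC became 0.07 and 0.08 under quantile normalization. For the nuclear respiratory chain genes, 0.11, 0.18 and 0.18 became 0.04, 0.07 and 0.04 with CPC, AEBDAC and MTOAC. Those of the mitoribosomal proteins with other symbols, 0.13, 0.08 and 0.22, became 0.12, 0.12 and 0.21.

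Factors that serve the mitoribosome gave a few calls, all with MTOAC, where 5.75% of all tested genes were called lower. At an unadjusted p under 0.05 there were 4 of the 15 translation factors, 9 of the 27 assembly factors and 1 of the 6 transcription genes with MTOAC, beside 24.4% of all genes. Of 15 tested translation factors 1 fell, Taco1, an activator of the translation of a cytochrome oxidase subunit, to 13.5 ± 0.914 TPM, against 20.4 ± 1.75 TPM in vehicle (SD, n = 3 each; log2 -0.57 ± 0.15 SE, adjusted p 0.0463 by limma). Of 27 assembly factors 3 fell: Mrm2, which methylates the large ribosomal RNA, at a log2 of -0.66 (adjusted p 0.037 by limma), Ybey, an endoribonuclease, at -0.87 (0.0458) and Ngrn, which is needed for the large ribosomal RNA, at -0.87 (0.0491). The calls of Taco1, Mrm2, Ybey and Ngrn were lost in each of the 6 fits that left out a library, at adjusted p of 0.0789 to 0.115, 0.0539 to 0.111, 0.0731 to 0.139 and 0.0628 to 0.14, and under quantile normalization (0.322, 0.129, 0.108 and 0.0837). With a pseudocount of 0.1 those of Ybey (0.0555) and Ngrn (0.0517) were also lost, and with TPM rescaled over nuclear genes that of Taco1 (0.0609). Ybey was at 1.25 ± 0.27 TPM in MTOAC and 3.09 ± 0.358 TPM in vehicle, a level where the pseudocount of 1 weighs. Of 6 genes of mitochondrial transcription 1 fell, Mterf2, of the mitochondrial transcription termination factor family, to 9.89 ± 2.56 TPM, against 29.2 ± 11.1 TPM in vehicle (log2 -1.44 ± 0.27, adjusted p 0.0162 by limma), a call lost in 1 of the 6 fits that left out a library, without MTOAC library 2 (0.0521). The translation factors had medians of -0.25, -0.27 and -0.23, and the assembly factors -0.24, -0.27 and -0.34, with CPC, AEBDAC and MTOAC. The transcription genes had -0.36, -0.48 and -0.47, and -0.19, -0.32 and -0.25 under quantile normalization. Over the fits run, their median minus that of the members ran from -0.41 to 0.04, -0.56 to -0.09 and -0.43 to 0.05.

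Among 10 regulators of nuclear mitochondrial genes, Atf4, the transcription factor of the integrated stress response, rose. It had 265, 384 and 360 TPM in CPC, 381, 444 and 445 TPM in AEBDAC, 366, 432 and 301 TPM in MTOAC, and 132, 176 and 220 TPM in vehicle, with every compound library above every vehicle library. Its fold change was 1.29 ± 0.20 with AEBDAC (adjusted p 0.0207 by limma), 1.07 ± 0.20 with MTOAC (0.0162) and 0.94 ± 0.20 with CPC, which did not pass (0.12). In fits that left out a library the call with MTOAC was lost without MTOAC library 2 (0.064), and that with AEBDAC without vehicle libraries 1 and 2 (0.0511 and 0.0793) and AEBDAC libraries 2 and 3 (0.135 and 0.111). Of the 10, Atf4 alone was called, where 0.391% and 0.791% of all tested genes were called higher with AEBDAC and MTOAC. Medians of the 10 were 0.11, 0.29 and 0.06 with CPC, AEBDAC and MTOAC, with 3, 4 and 5 below 0. An unadjusted p under 0.05 was found for 3, 3 and 2 of them, beside 13.6%, 19.2% and 24.4% of all genes. Pprc1 had 0.66, 0.92 and 0.95 without a call (adjusted p 0.339, 0.11 and 0.0628 by limma). Nrf1, which binds the motif searched above, averaged 33.4 ± 5.03 TPM in MTOAC and 33.6 ± 5.81 TPM in vehicle. Yy1 averaged 36 ± 4.78 TPM in MTOAC and 28.3 ± 3.07 TPM in vehicle, at an adjusted p of 0.287, and Gabpa, an ETS-family factor, 28.3 ± 4.6 TPM in MTOAC and 32.8 ± 8.26 TPM in vehicle, at 0.533.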

How the data were processed

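Per the labels' protocols, poly(A) RNA from 12 OPC samples was made into libraries with a kit not described as marking strand and sequenced as 150 bp pairs. Salmon and the build mm10 are named, per the submitters' processing notes; for Salmon, version and annotation remain not given in the sources used here. TPM were deposited by the authors, 1 table per library, scaled to transcript length and library total, so a rise of abundant transcripts lowers all other values.

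From these, limma 3.58.1 in R 4.3.3 (trend and robust moderation, tested on simulated data) was fitted to log2(TPM + 1) over the 12 libraries and 12009 genes that reached 1 TPM in 3 or more libraries, with 4 group means, two-sided p-values and Benjamini-Hochberg adjustment within a comparison. Alternatives were pseudocounts of 0.1 and 5, no filter, quantile normalization, TPM rescaled over nuclear genes, a replicate block, quantile normalization with the block, a fit to the 2 groups compared, and each library left out. Deviations from the group means of same-numbered libraries correlated across genes at 0.34, 0.31 and 0.23 between CPC and vehicle. They correlated likewise between AEBDAC and CPC (0.28, 0.42 and 0.23) and between MTOAC and AEBDAC (0.33, 0.36 and 0.30). Between MTOAC and CPC the values were 0.17, 0.4 and 0.09, and those of AEBDAC and MTOAC with vehicle are given below. Libraries of different number were not correlated for comparison. This pairing is from the data and not from the labels. All values are from the fit without the block unless the block is named, intervals between compounds included; the blocked fit made 0 calls between compounds.

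The members, gene lists, motifs and tests were chosen with earlier results of these data known. Genes were named when called in a comparison with vehicle (or among the 6 with the smallest p), when among the 4 highest or 4 lowest in vehicle, or from a list of 12 chosen members and from called genes of the lists, up to 3 a list; Mrpl10, Mrpl11, Mrpl24, Mrpl46, Mrps11, Mrps24 and Syvn1 were added after their values were seen. Coordinates, overlaps and shared 31-base words came from GENCODE M21 (GRCm38), start regions from RefSeq (GRCm38.p6).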

Additional observations from a re-analysis of the deposited data

How the results depend on the processing

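The called changes of members kept their direction under every alternative run, and the number of calls did not. Without the filter the members called were 0 with AEBDAC and 3 with MTOAC. With quantile normalization they were 2 with MTOAC, and the member medians were 0.03 with CPC, -0.03 with AEBDAC and -0.04 with MTOAC. With the replicate block they were 1 with CPC, 7 with AEBDAC and 13 with MTOAC. The block added Mrpl18, Mrpl36, Mrpl41, Mrpl50 and Mrps22 with AEBDAC. With MTOAC it added Mrpl10, Mrpl16, Mrpl18, Mrpl24, Mrps17, Mrps22 and Mrps31. With the block and quantile normalization the members called were 1 with CPC and 4 with AEBDAC, at the same medians of 0.03, -0.03 and -0.04. By the deviations CPC paired with vehicle at each library number. For AEBDAC and vehicle the correlations were 0.08, 0.25 and 0.03, and for MTOAC and vehicle -0.03, 0.35 and -0.19. For both compounds, mainly library 2 deviated with that of vehicle. Of all tested genes 13.4% were lowest in library 2 of all 4 groups. Whether the block suits AEBDAC and MTOAC was not tested. Fitting only the 2 groups compared gave 0 with AEBDAC and 0 with MTOAC, from fewer samples. With each library left out in turn, members called were 0 with CPC, 0 to 1 with AEBDAC and 0 to 3 with MTOAC, and the member medians ran from -0.17 to -0.12 with CPC, -0.21 to -0.08 with AEBDAC and -0.25 to -0.16 with MTOAC. Between compounds 0 members were called by limma in every setting, the replicate block included. A pseudocount of 0.1 or 5 left 2 members called with AEBDAC and 6 with MTOAC, and with 5 Mrpl24 took the place of Mrpl20; TPM rescaled over nuclear genes gave 2 and 7, with Mrpl24 added. Under quantile normalization Mrpl49 and Mrps30 stayed called with AEBDAC and MTOAC, whereas Mrpl36 (adjusted p 0.0709 by limma), Mrpl41 (0.0901), Mrpl50 (0.0819) and Mrpl20 (0.0802) were lost with MTOAC. The cause of these shifts was not tested.

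Calls over all 12009 genes numbered 8, 153 and 785 with CPC, AEBDAC and MTOAC; without the filter they were 6, 38 and 404, with quantile normalization 16, 182 and 430 (of the MTOAC calls 213 higher and 217 lower, against 95 and 690 as fitted), with the replicate block 184, 1072 and 1904, with both 115, 907 and 1194, and in fits to 2 groups 0, 3 and 17. With each library left out they ran from 1 to 5, 9 to 104 and 149 to 573. TPM hold no read counts, so the error from depth could not be set beside the spread between libraries, and the unadjusted 95% interval reached 0.36 log2 to either side for the median member and 0.55 for the median tested gene. The labels give neither concentrations nor what the library numbers stand for.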
